A study of Mus musculus with 32 samples.

Results

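Keratinocytes hold and make a small group of alarm signals, and 9 of their genes were followed here through mouse skin tissue and epidermal organoids: the interleukin-1 ligands Il1a and Il1b, the receptor antagonist Il1rn, the decoy receptor Il1r2, the related ligands Il33 and Il18, the cytokine Tslp and the chemokines Ccl20 and Cxcl1. The members were taken by gene name from each library's count table, and they are 9 of the 19970 gene names that occurred in the series. All 32 libraries came from Bl/6 mouse skin and were made by CEL-seq2, which tags and counts the 3' ends of transcripts. The tissue groups were cells sorted from interfollicular epidermis as Itga6+Sca1+ (3 libraries), anagen-phase hair follicles (3) and follicles of mixed anagen and telogen phase (3). Organoids, which are epidermal stem cells grown as three-dimensional cultures, were sampled before any passage at 7 days (5 libraries), within 3 months of culture at 7 to 12 passages (12, called early) and within 6 months at 23 to 30 passages (6, called late). The media differed in 3 additions: forskolin, which raises cAMP, a fibroblast growth factor (Fgf10 or Fgf1) and a TgfB inhibitor. The 5 unpassaged libraries are given below in the order forskolin, forskolin plus Fgf10, forskolin plus Fgf1, forskolin plus inhibitor, inhibitor alone. The last 4 of these media were also used for early organoids, in 4, 2, 4 and 2 libraries. All late organoids grew with forskolin plus Fgf1.

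As background, interleukin-1 alpha is stored ready-made in keratinocytes and is set free when they are damaged. It acts through the interleukin-1 receptor, MyD88 and the kinases that activate NF-kB, and the antagonist and the decoy receptor hold that signal down. Interleukin-33 and interleukin-18 belong to the same family: the first is kept in the nucleus, and the second needs a caspase to become active. TSLP drives type 2 immunity in the skin, Ccl20 attracts cells with the receptor Ccr6, and Cxcl1 attracts neutrophils through Cxcr2.

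Libraries held 412582 to 3351435 counts. Sorted epidermis was the shallowest tissue (469839 to 739531 counts), so that a single count there is worth 1.35 to 2.13 CPM (a gene's count scaled by its library's total of gene counts). By the list of genes that each file names, the libraries belong to 11 source tables. No table held both tissue and organoids, or libraries of different tissue groups. Neither tissue against culture nor the comparisons among tissues can be told apart from the table. Basal keratinocyte markers summed to 32024 to 34426 CPM in sorted epidermis, 22186 to 45133 in early organoids and 369.9 to 2511 in anagen follicles, where hair matrix and inner root sheath markers summed to 41047 to 60985. All 6 T cell markers that the files list and 13 of 14 markers of Langerhans and other myeloid cells had counts in sorted epidermis (sums of 66.0 to 129 and 466.2 to 762 CPM), and the myeloid markers summed to 97.8 to 185 CPM in unpassaged, 40.9 to 110 CPM in early and 93.7 to 326 CPM in late organoids. Of these 14, 5, 2 and 5 were at 0 in the 3 stages, among them Cd207, a defining marker of Langerhans cells, in every organoid library. Cd74 and Ptprc reached at most 1.60 and 1.00 CPM in organoids, against at least 33.8 and 7.40 CPM in sorted epidermis. The organoid sums thus came mostly from other genes of the list, which also holds Epcam, an epithelial gene. Mixed follicles had basal keratinocyte sums of 7440 to 13937 CPM, and differed from anagen follicles in the sums of fibroblast markers (898 to 1932 against 34.9 to 521 CPM) and neutrophil markers (86.6 to 134 against 14.1 to 30.2 CPM). Of the 6 neutrophil markers that the files list, 2 had no count in mixed follicles and 4 had none in anagen follicles. In sorted epidermis 5 had none, so that the sum there (12.8 to 21.6 CPM) was Cxcr2 alone. The wound keratins Krt6a, Krt6b, Krt16 and Krt17 summed to 215 to 842 CPM in sorted epidermis and to 1519 to 73603 across the organoids. The part of these cells and programmes in the results was not tested. In such bulk samples fewer cells of a type and less RNA per cell cannot be told apart, and no label ties replicates to different animals or cultures, so a p-value here measures only how far these samples spread, which may be technical.

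Il1a (2:129299610-129309972, minus strand), Il1b (2:129364570-129371139, minus) and Il1rn (2:24336853-24351494, plus) lie on chromosome 2, Il1r2 (1:40074079-40125231, plus) and Ccl20 (1:83116766-83119167, plus) on chromosome 1, Cxcl1 (5:90891241-90893115, plus) on 5, Il18 (9:50554827-50581840, plus) on 9, and Il33 (19:29925114-29960718, plus) on 19. These are whole protein-coding genes in GENCODE M21 (GRCm38, the assembly of mm10). The bases just before the start sites of 4 members are shown because they carry matches to NF-kB or AP-1 letters. They were chosen after the matches and the values were seen. They come from RefSeq's promoters of GRCm38.p6, on the gene's strand, at chr2:129309973-129310122 for Il1a, chr2:24336710-24336852 for Il1rn, chr1:83116616-83116765 for Ccl20 and chr5:90891095-90891240 for Cxcl1. Capitals mark matches to the motifs searched.
Il1a: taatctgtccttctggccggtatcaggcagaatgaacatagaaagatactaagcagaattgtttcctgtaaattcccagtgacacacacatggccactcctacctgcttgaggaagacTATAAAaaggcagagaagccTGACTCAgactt
Il1rn: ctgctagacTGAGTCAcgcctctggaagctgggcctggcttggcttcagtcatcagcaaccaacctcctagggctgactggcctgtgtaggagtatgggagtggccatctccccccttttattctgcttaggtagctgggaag
Ccl20: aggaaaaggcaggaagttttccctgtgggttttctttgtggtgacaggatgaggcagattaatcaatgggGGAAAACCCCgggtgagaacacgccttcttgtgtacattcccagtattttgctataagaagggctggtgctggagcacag
Cxcl1: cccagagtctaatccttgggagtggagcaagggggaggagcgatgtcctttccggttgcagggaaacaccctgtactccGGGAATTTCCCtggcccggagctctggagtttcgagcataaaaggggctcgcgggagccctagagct
Promoters of 8 members (11 start sites, 250 bases before to 50 after each) were searched on both strands for the NF-kB consensus, for TGANTCA, the site of AP-1, for TGACGTCA, the site of CREB, and for TATAAA. The Il1a stretch holds TATAAA from 32 and TGANTCA from 12 bases before the start, and the Il1rn stretch TGANTCA from 141 bases before it. An NF-kB match begins 80 bases before the Ccl20 start on the minus strand, and overlapping matches on both strands begin 71 and 70 bases before the Cxcl1 start. Outside the stretches shown, TATAAA was found 31 bases before the Il1b start, 29 and 203 bases before 2 starts of Il33, 175 bases before a start of Il18 and 15 bases after a second start of Il1rn. TGACGTCA occurred in none of the 8. Of all 32851 promoters of this length, 8.46% held the NF-kB consensus, 7.81% TGANTCA, 1.79% TGACGTCA and 13.6% TATAAA, and a match is a description of the letters only.

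The first question was how the alarm genes differ between the epidermis and the hair follicle. Interleukin-1 alpha messenger RNA was nearly absent from the sorted epidermal cells and present in every follicle library, whereas the decoy receptor Il1r2 had the opposite pattern. Il1a stood at 0, 1.35 and 0 CPM in sorted epidermis, which is 1 count in all, at 31.6, 16.4 and 38.5 CPM in anagen follicles and at 30.1, 16.1 and 30.3 CPM in mixed follicles. For epidermis replicate 3 neither Il1a nor Ccl20 was listed, and both were taken as 0 there. Il1r2, which binds interleukin-1 without signalling, stood at 302, 292 and 259 CPM in sorted epidermis, 0, 0 and 1.03 CPM in anagen follicles and 3.58, 11.3 and 2.17 CPM in mixed follicles. Sorted epidermis did not overlap with either follicle group for Il1a or Il1r2. How many of all genes do not overlap between groups was not counted, here or below. Non-overlap therefore only describes the values. Il33 followed Il1r2 at a lower level: 80.9, 54.1 and 72.1 CPM in sorted epidermis, 0.972, 0 and 1.54 CPM in anagen follicles and 6.45, 8.95 and 5.05 CPM in mixed follicles.

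Il1rn, the antagonist, was present in all 3 tissues, with 102, 68.96 and 94.3 CPM in sorted epidermis, 39.9, 28.9 and 46.7 CPM in anagen follicles and 76.6, 73.1 and 43.3 CPM in mixed follicles. Il18 had no count in anagen follicles, 2.15, 8.95 and 7.94 CPM in mixed follicles and 8.51, 0 and 3.70 CPM in sorted epidermis. The anagen zero over 5527414 counts allows a level of up to 0.543 CPM. The remaining members were low in tissue: Tslp reached 4.06 to 8.51 CPM in sorted epidermis and at most 2.15 CPM in any follicle library, and Ccl20 and Cxcl1 reached at most 5.41 and 7.46 CPM. Il1b had no count in sorted epidermis and 0 to 1.54 CPM in follicles. It stayed under the filter on low counts in every comparison of this report. In the edgeR fits with no filter it did not pass in any of them (adjusted p of 0.251 or more).

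In the test of sorted epidermis against anagen follicles (edgeR's quasi-likelihood test; adjusted p-values are Benjamini-Hochberg values over all genes of the fit, here and below), 3 of the 8 tested members passed an adjusted p of 0.05, beside 34.2% of the 10843 genes tested (14.8% higher and 19.4% lower in sorted epidermis). Il1r2 was higher in sorted epidermis by 8.79 on the log2 scale (SE 1.30, adjusted p = 8.12e-05) and Il33 by 5.60 (SE 1.26, adjusted p = 0.00239). Il1a was lower, at -6.11 (SE 1.28, adjusted p = 0.00141). By counts alone, the pooled Il1a level of anagen follicles was 52.2 times that of sorted epidermis, with an exact 95% interval of 9.25 to 2076 that covers counting error only. The others were not past the test, among them Tslp (4.05, SE 1.58, adjusted p = 0.0553) and Il18 (5.03, adjusted p = 0.104). Both passed with DESeq2 (adjusted p of 0.0161 and 0.013), with no filter on low counts (0.00823 and 0.0189) and with scaling by library totals alone (0.0255 and 0.0478). The last moved the share of called genes that were higher in epidermis from 43.4% to 61.9%.

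Against mixed follicles, which share the sorted epidermis libraries with the comparison above, 2 of 8 members passed, beside 30.3% of all genes (11.9% higher, 18.5% lower): Il1r2 was higher in sorted epidermis (4.55, SE 0.95, adjusted p = 0.0017) and Il1a lower (-6.42, SE 1.27, adjusted p = 0.00116). Il33 was 2.25 higher (SE 0.99, adjusted p = 0.0956), and passed with no filter on low counts (2.27, adjusted p = 0.0116), in a fit of these groups alone (2.26, adjusted p = 3.04e-05) and with library totals alone (3.29, adjusted p = 0.014), but not with DESeq2 (adjusted p = 0.0739). Scaling by library totals moved the share of called genes higher in epidermis from 39.1% to 77.7% and the median of all genes from -0.08 to 0.92 on the log2 scale. TMM scaling, the scaling used in the tests, gave the mixed follicle libraries factors of 0.418 to 0.779 and sorted epidermis 1.26 to 1.33. Il1rn averaged 88.5 ± 17.4 CPM (SD, n = 3) in sorted epidermis against 64.4 ± 18.3 in mixed follicles by library totals, but with these factors had a fitted difference of -0.61 (SE 0.76, adjusted p = 0.574; 0.039 in a fit of these groups alone), and no direction is given for it.

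Between the follicle groups, 1 of 8 members passed, beside 6.63% of all genes (1.21% higher and 5.42% lower in anagen follicles). Il18 was lower in anagen follicles (adjusted p = 0.0305), and its pooled level in mixed follicles was at least 13.2-fold higher, against a floor of 3 counts over the 3 anagen libraries. This call depended on single libraries: it was lost when any anagen library, or mixed replicate 2 or 3, was left out (adjusted p of 0.057 to 0.102). Il1r2, Il33 and Ccl20 also did not overlap between the follicle groups and had higher values in mixed follicles, but with adjusted p of 0.0818, 0.158 and 0.11 they did not pass. With no filter on low counts Il1r2 and Il33 passed, and with DESeq2 Il1r2. The part of the markers that differ between the follicle groups was not tested. With library totals alone, the share of called genes that were higher in anagen follicles was 42.8%, against 18.2% with TMM.

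**Figure D1:**
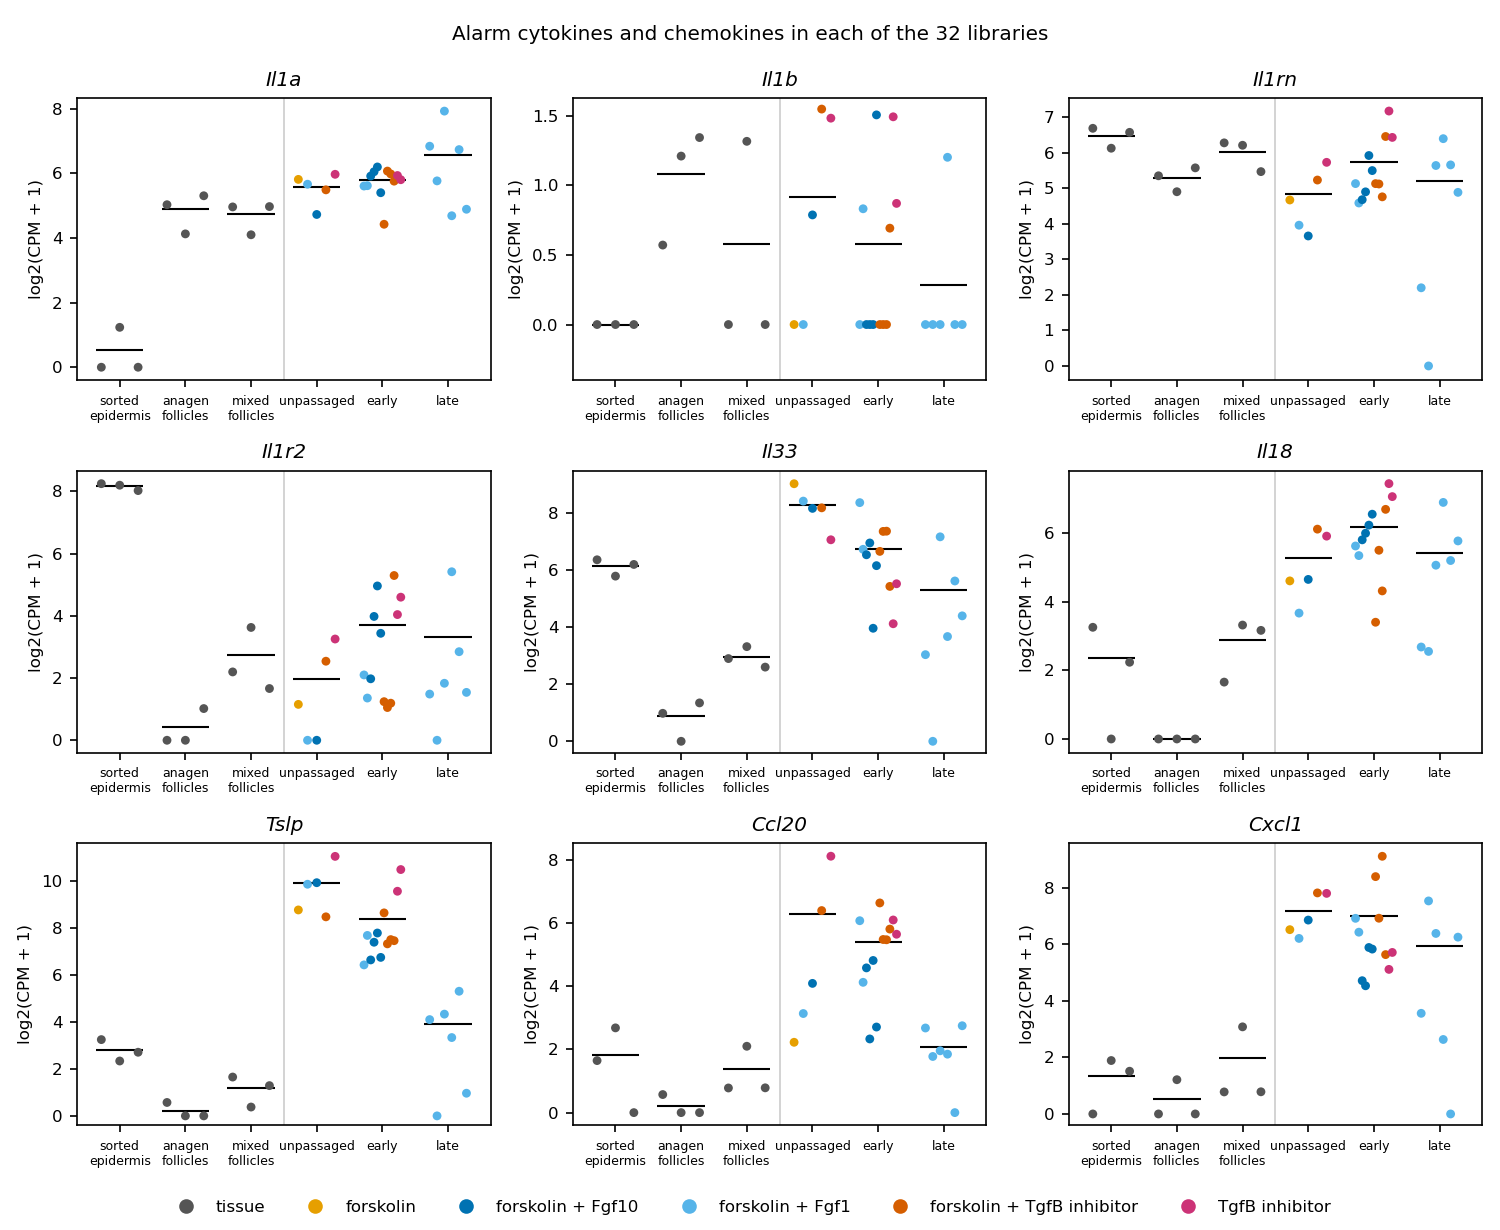
Level of each member in every library, as log2(CPM + 1), with a panel for each gene and a column for each tissue or organoid stage; points are libraries coloured by medium, and the bar is the log2 of the group's mean CPM plus 1. Il1a is at the floor in sorted epidermis and Il1r2 at 259 to 302 CPM there, while Tslp lies between 85.4 and 2130.2 CPM in unpassaged and early organoids and at 38.7 CPM or less elsewhere.

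The next comparisons set organoids of each stage, labelled as bulk cells, against the sorted epidermis. Only the epidermal labels name sorting. Sorting therefore cannot be told apart from culture here, or from tissue in the comparisons with follicles above. In culture Il1a, Il18, Tslp, Ccl20 and Cxcl1 were above their epidermal levels in most libraries, and the decoy receptor Il1r2 was below its epidermal level in all of them. Il1a stood at 55.1, 25.4, 49.6, 43.8 and 61.5 CPM in the unpassaged libraries, in the order of media given above. Early organoids ranged from 20.4 to 72.2 CPM with a median of 57.0, and late organoids from 24.7 to 241 CPM with a median of 79.3. No organoid library overlapped with sorted epidermis, and the organoid stages overlapped with each other and with follicles.

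Il1r2 stood at 1.22, 0, 0, 4.82 and 8.54 CPM in the unpassaged libraries, at 1.07 to 38.2 CPM in early organoids (median 6.56) and at 0 to 41.6 CPM in late organoids (median 2.23), so that every organoid library lay below the lowest epidermal value of 259 CPM. Il1rn was at 24.5, 11.6, 14.6, 36.6 and 52.1 CPM in the unpassaged libraries, at 23.0 to 143 CPM in early ones (median 34.1) and at 0 to 83.3 CPM in late ones (median 38.7). Unpassaged organoids lay below sorted epidermis for Il1rn, and early and late organoids overlapped with it. Il33 stood at 518, 284, 339, 288 and 132 CPM in the unpassaged libraries, all above the epidermal range. It ranged from 14.5 to 327 CPM in early organoids (median 95.5) and from 0 to 142 CPM in late ones (median 15.9), both of which overlapped with sorted epidermis.

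Il18 stood at 23.3, 24.0, 11.7, 67.9 and 58.8 CPM in the unpassaged libraries, at 9.54 to 172 CPM in early organoids (median 58.5) and at 4.85 to 117 CPM in late ones (median 33.9), and only the late range reached down into the epidermal one. Tslp stood at 437, 978, 935, 356 and 2130.2 CPM in unpassaged organoids and at 85.4 to 1443 CPM in early ones (median 179), against 4.06 to 8.51 CPM in sorted epidermis. In late organoids it was 0 to 38.7 CPM (median 12.6), which overlaps with the epidermis. The order of its mean levels ran from unpassaged and early organoids, which overlap, to late organoids and sorted epidermis, which overlap, and then to both follicle groups, which overlap. The late range also reached down into that of the follicles, with late values of 0 and 0.952 CPM against up to 2.15 CPM in mixed follicles.

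Ccl20 stood at 3.67, 15.99, 7.78, 82.8 and 275 CPM in the unpassaged libraries, at 4.03 to 98.1 CPM in early organoids (median 43.3) and at 0 to 5.71 CPM in late ones (median 2.74). The lowest early and unpassaged libraries and all late ones lay within or near the epidermal range of 0 to 5.41 CPM. Cxcl1 stood at 90.6, 115, 72.9, 224 and 222 CPM in the unpassaged libraries, at 22.1 to 552 CPM in early organoids (median 57.0) and at 0 to 184 CPM in late ones (median 43.0), against at most 2.70 CPM in sorted epidermis, with which only the late range overlapped. Il1b had at most 1.93 CPM in any organoid library.

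In the test of unpassaged organoids against sorted epidermis, 7 of the 8 tested members passed, beside 36.3% of the 10698 genes tested (18.7% higher, 17.7% lower). This fit, also used for early organoids below, pooled the media of each stage without a medium term. Each unpassaged medium had a single library, so the spread among media serves as the error. The rises were 7.53 for Tslp (SE 1.22, adjusted p = 1.87e-05), 6.505 for Cxcl1 (SE 1.57, adjusted p = 0.00168), 6.34 for Il1a (SE 1.07, adjusted p = 3.5e-05), 4.88 for Ccl20 (SE 1.28, adjusted p = 0.00352), 3.53 for Il18 (SE 1.15, adjusted p = 0.0169) and 2.41 for Il33 (SE 0.88, adjusted p = 0.0319), all on the log2 scale. Il1r2 fell by 6.20 (SE 1.02, adjusted p = 2.44e-05), and Il1rn was at -1.46 (SE 0.65, adjusted p = 0.0804). The median over the 8 members was 4.21, and over all genes 0.04. The pooled Cxcl1 level was 93.8 times the epidermal one (exact 95% counting interval 32.02 to 455), and that of Il1a 84.8 times (15.1 to 3356), since the epidermal libraries held 3 and 1 counts. The Il33 call was lost without any epidermal library or without the unpassaged library with forskolin alone (adjusted p of 0.0643 to 0.109), and with library totals alone (adjusted p = 0.0517). The Il18 call was lost without epidermis replicate 2 (adjusted p = 0.0965) or 3 (adjusted p = 0.0555), and Il1rn passed without the library with the inhibitor alone (-1.78, adjusted p = 0.0487) with library totals (-1.64, adjusted p = 0.0487) and in a fit of these groups alone (-1.49, adjusted p = 0.00645). Library totals moved the share of called genes that were higher in organoids from 51.4% to 40.5%.

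Early organoids, set against the same epidermal libraries, had 6 of 8 members past the test, beside 41.1% of all genes (20.7% higher, 20.5% lower). Il1a rose by 6.65 (SE 1.03, adjusted p = 5.97e-06), Cxcl1 by 6.35 (SE 1.52, adjusted p = 0.00129), Tslp by 6.08 (SE 1.14, adjusted p = 8.21e-05), Il18 by 4.58 (SE 1.10, adjusted p = 0.00138) and Ccl20 by 4.08 (SE 1.24, adjusted p = 0.00923). Il1r2 fell by 4.27 (SE 0.68, adjusted p = 1.01e-05). Il33 (0.92, adjusted p = 0.354) and Il1rn (-0.47, adjusted p = 0.539) did not pass. The Ccl20 call was lost without epidermis replicate 3 (3.56, adjusted p = 0.0508), and library totals moved the share of called genes that were higher from 50.2% to 34.5%.

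Late organoids, again against these epidermal libraries but in a fit with the follicles, had 4 of 8 members past the test, beside 21.8% of 10843 genes (12.2% higher, 9.53% lower). Il1a was higher by 7.31 (SE 1.19, adjusted p = 0.000354), Cxcl1 by 5.20 (SE 1.47, adjusted p = 0.0173) and Il18 by 3.77 (SE 1.09, adjusted p = 0.0218), and Il1r2 was lower by a log2 value of -4.77 (SE 0.75, adjusted p = 0.000251). Tslp (1.49, SE 0.91, adjusted p = 0.263) and Ccl20 (0.42, SE 0.91, adjusted p = 0.791) did not pass here. The Cxcl1 call was lost without any of the 3 epidermal libraries (adjusted p of 0.0641 to 0.0739), and that of Il18 without replicate 2 (adjusted p = 0.106) or 3 (adjusted p = 0.0774). The Il18 call was also lost with the replicate number as a term in the edgeR model (1.94, adjusted p = 0.13). A fit of these groups alone called 1377 genes in place of 2360 and 2 members, Il1a and Il1r2, with Il18 at an adjusted p of 0.0504 and Cxcl1 at 0.0522.

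**Figure D2:**
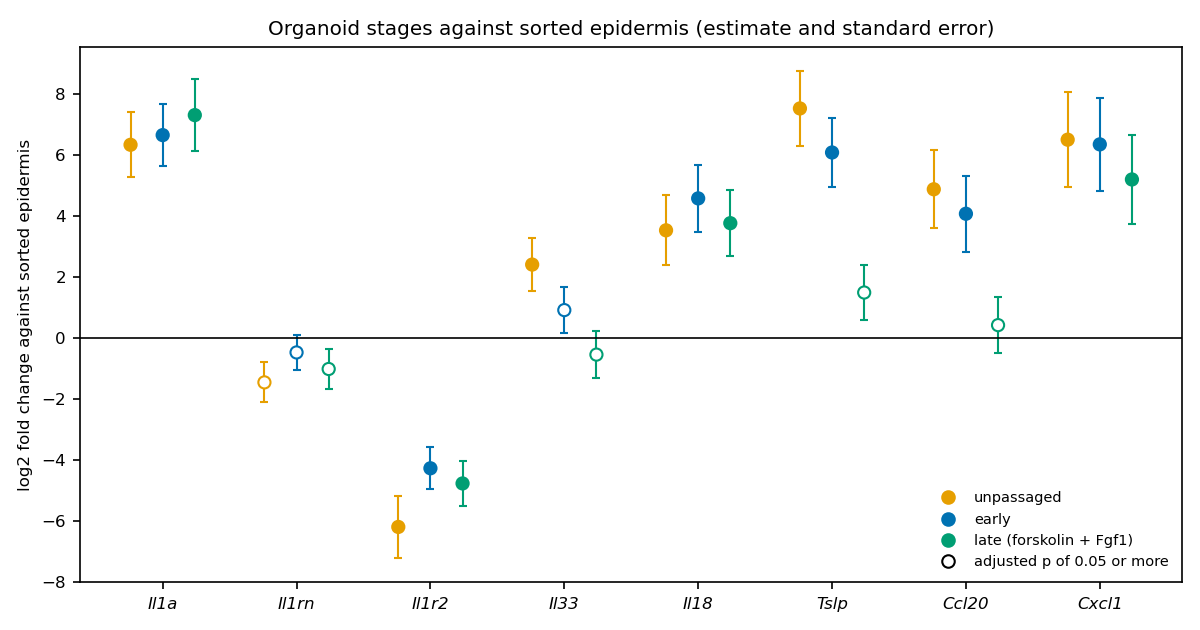
Log2 fold change of 8 members against sorted epidermis in unpassaged, early and late organoids, with bars of 1 standard error; filled points passed an adjusted p of 0.05 and open ones did not. Late organoids come from another fit than the others, and all share the 3 epidermal libraries. Unpassaged and early organoids are pooled over media, while late ones had only forskolin and Fgf1. Stage and medium therefore cannot be told apart across the points of a gene. Il1r2 lies between -6.20 and -4.27 in all stages, Il1a between 6.34 and 7.31, and Tslp at 7.53, 6.08 and 1.49.

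Late organoids were also set against mixed follicles, and 3 of 8 members passed, beside 39.7% of all genes (17.2% higher, 22.5% lower). Cxcl1 (3.27, SE 1.11, adjusted p = 0.0262) and Tslp (2.84, SE 1.02, adjusted p = 0.0337) were higher in late organoids and Il1rn lower (-1.63, SE 0.64, adjusted p = 0.0492), while Il1a differed by 0.89 (SE 0.63, adjusted p = 0.281). These 3 calls were near the threshold. Cxcl1 was lost without mixed follicle replicate 1 (adjusted p = 0.103) or 3 (adjusted p = 0.0834), and Tslp without mixed replicate 1 (adjusted p = 0.0596) or 2 (adjusted p = 0.209) or late replicate 3 (adjusted p = 0.0517) or 5 (adjusted p = 0.0618). Il1rn was lost without any mixed library (adjusted p of 0.0937 to 0.113) or late replicate 1, 3 or 6 (adjusted p of 0.0583 to 0.0752), and with library totals (-0.81, adjusted p = 0.293). Without late replicate 4, Il1r2 was lower (-1.98, adjusted p = 0.0155), and without late replicate 1 or 2 Il18 was higher (adjusted p of 0.0427 and 0.0469). With library totals Il1a, Il33 and Il18 passed in addition to Cxcl1 and Tslp (1.92, 2.53 and 2.67 for the first 3). This scaling moved the median of all genes from -0.0046 to 0.81, and the share of called genes higher in late organoids from 43.4% to 74.4%. A fit of these groups alone called 0 members, with adjusted p of 0.0757 for Cxcl1, 0.0937 for Tslp and 0.107 for Il1rn.

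How the alarm genes changed with time in culture was asked in early against unpassaged organoids of the same media, with medium as a term in the model. This used the 12 early and 4 of the 5 unpassaged libraries, since no early library had forskolin alone. Tslp and Il33 were lower after passaging and the antagonist Il1rn was higher, which is 3 of 8 members, beside 11.8% of the 8890 genes tested (5.69% higher, 6.13% lower). Tslp fell by 1.78 (SE 0.35, adjusted p = 0.00462) and Il33 by 1.38 (SE 0.41, adjusted p = 0.0386), and Il1rn rose by 1.11 (SE 0.35, adjusted p = 0.045). Il1a (0.45), Il18 (0.94), Ccl20 (-0.39) and Cxcl1 (-0.79) did not pass (adjusted p of 0.192 to 0.645), nor did Il1r2 (1.99, SE 0.93, adjusted p = 0.167). Tslp passed in 15 of 16 fits that left out a library and was lost without the unpassaged library with Fgf10 (-1.37, adjusted p = 0.0819), where 184 genes passed in place of 1051. Il33 passed in 9 of these 16 (adjusted p up to 0.192) and Il1rn in 5 (adjusted p up to 0.208). Without the unpassaged library with the inhibitor alone 396 genes passed, and Tslp was the only member called. Without the unpassaged library with forskolin and the inhibitor, Il18 passed (1.69, adjusted p = 0.0462). In a fit of the Fgf10 and Fgf1 media alone, Il18 rose (1.79, adjusted p = 0.00589), Tslp again passed as lower, and Il33 (adjusted p = 0.194) and Il1rn (adjusted p = 0.0581) did not pass. Library totals moved the share of called genes that were higher in early organoids from 48.1% to 26.5%. With the replicate number as a further term in the edgeR model, 0 members and 87 genes passed, with Tslp at -1.94 (adjusted p = 0.0859).

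Source tables differ between these stages for 10 of the 12 early libraries. Within the source table that holds an early and an unpassaged library for each of the Fgf10 and Fgf1 media, Tslp fell by 3.33 (adjusted p = 0.00012), Il33 was at -0.77 (adjusted p = 0.258) and Il1rn at 1.20 (adjusted p = 0.0925), Il18 rose by 1.60 (adjusted p = 0.0214), and 433 genes passed. This fit was chosen after the data were seen and had a single library for each stage and medium. Its p-values therefore lean on a spread shared over genes. In the Fgf10 medium Tslp stood at 978 CPM unpassaged and 99.1 CPM early in that table, and in the Fgf1 medium at 935 and 85.4 CPM. In the media with the inhibitor, by contrast, it stood at 356 CPM unpassaged against 160 to 401 CPM early with forskolin, and at 2130.2 against 760.0 and 1443 CPM without it. The test of that difference itself gave 1.99 for the stage change of Tslp in the inhibitor media minus that in the Fgf media (SE 0.56), with an adjusted p of 0.464 over 8890 genes, of which 3 passed. The difference in the Tslp change between media is therefore not shown, and that of Ccl20 (-2.16, SE 0.95, adjusted p = 0.726) is not either.

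Late against early organoids could be compared in the medium with forskolin and Fgf1. Tslp stood at 85.4 and 205 CPM in the early libraries and at 16.2, 0, 19.2, 9.11, 38.7 and 0.952 CPM in the late ones. Ccl20 stood at 66.1 and 16.4 CPM in the early libraries and at 5.39, 2.42, 2.88, 2.60, 0 and 5.71 CPM in the late ones. The stages did not overlap for either gene. Both fell, Tslp by 3.42 (SE 0.67, adjusted p = 0.00753) and Ccl20 by 3.71 (SE 0.64, adjusted p = 0.00352), and these were the 2 of 8 members that passed, beside 6.71% of the 9919 genes tested (2.99% higher, 3.72% lower). Il33 was at 327 and 105 CPM in the early libraries and at 7.19, 0, 142, 11.7, 48.0 and 19.999 CPM in the late ones, so that 1 late library lay within the early range (-2.47, SE 0.87, adjusted p = 0.0905). Il1a (0.89, SE 0.63), Il18 (-0.08, SE 0.80), Il1rn (0.32, SE 0.78) and Cxcl1 (-0.91, SE 0.96) did not pass (adjusted p of 0.4 to 0.966).

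With 2 early libraries this comparison rests on each of them. Without early replicate 1 Ccl20 was at -2.45 (adjusted p = 0.128) and 85 genes passed in place of 666, and without early replicate 2 Tslp was at -2.66 (adjusted p = 0.137) and 44 genes passed. A fit of these groups alone kept both values (-3.42 and -3.70) but not the calls (adjusted p of 0.136 and 0.116). Without late replicate 3, the deepest late library, Il33 passed (-3.55, adjusted p = 0.0156), and without late replicate 4 1097 genes passed. The late libraries differed from each other: those labelled replicates 1 and 2 had differentiated keratinocyte markers at 104 and 184 CPM in sum, against 2021 to 23121 CPM in the other 4, and they had the lowest Il18 (5.39 and 4.85 CPM) and Il1rn (3.59 and 0 CPM). Late replicate 3 also held little Krt10, Krt1 and Lor (26.2, 6.40 and 17.6 CPM), against 941 to 5911 CPM of Krt10 in replicates 4 to 6. Its Il18 stood at 32.3 CPM and its Il1rn at 48.9 CPM. Early and late libraries shared no source table, so stage and table cannot be told apart here.

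The media were compared within early organoids, in fits that share libraries: forskolin with the inhibitor serves in 2 of these comparisons and forskolin with Fgf10 in 2. With forskolin and the inhibitor in place of forskolin and Fgf10, no member passed, beside 0.575% of all genes (0.262% higher, 0.313% lower), and DESeq2 called no member either. Ccl20 stood at 98.1, 43.5, 43.2 and 54.9 CPM with the inhibitor and at 22.9, 4.03, 27.1 and 5.53 CPM with Fgf10, with no overlap (1.86, SE 0.53, adjusted p = 0.163). Cxcl1 stood at 335, 120.2, 552 and 48.7 CPM against 25.2, 22.1, 58.2 and 55.9 CPM (2.54, SE 0.91, adjusted p = 0.362), and 3 of 4 inhibitor libraries lay above the Fgf10 range. Ccl20 passed with no filter on low counts (1.84, adjusted p = 0.0487). The remaining 6 tested members differed by -0.74 to 0.50 (adjusted p of 0.956 to 1).

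With forskolin and the inhibitor against the inhibitor alone, no member and none of the 9919 genes passed (0%) in edgeR, 623 genes had an unadjusted p under 0.05, and DESeq2 called 24 genes. Tslp stood at 401, 160, 181 and 176 CPM with forskolin and at 760.0 and 1443 CPM without it (-2.35, SE 0.70, adjusted p = 0.427). Il18 stood at 9.54, 44.0, 18.8 and 102 CPM with forskolin and at 172 and 132 CPM without it (-1.77, SE 0.81, adjusted p = 0.776). Neither gene overlapped between the media. Il1rn, at 34.1, 33.8, 26.1 and 86.9 CPM against 143 and 85.4 CPM, did overlap (-1.36, adjusted p = 0.859). In the unpassaged libraries, 1 for each medium and so without a test, Tslp was highest with the inhibitor alone (2130.2 CPM, against 356 CPM with forskolin added), and so was Il1rn (52.1 against 36.6 CPM), while Il18 was lower without forskolin (58.8 against 67.9 CPM). Ccl20, Il1r2 and Il1a were highest with the inhibitor alone in the unpassaged libraries (275, 8.54 and 61.5 CPM). Among early organoids the highest library had forskolin and the inhibitor for Ccl20 and Il1r2 and Fgf10 for Il1a. For Il1r2 this was 1 library at 38.2 CPM. The rest of its medium stood at 1.07 to 1.36 CPM, and the inhibitor alone at 15.4 and 23.2 CPM. For Ccl20 the inhibitor alone (67.2 and 48.9 CPM) lay within the range with forskolin added (43.2 to 98.1 CPM).

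With Fgf1 in place of Fgf10, again no member and no gene passed (0%) in edgeR, 328 genes had an unadjusted p under 0.05, and DESeq2 called 15 genes. The member values were between -2.63 (Il1r2, SE 1.49) and 1.40 (Il33, SE 0.96), and each adjusted p was 1. Il18 (48.0 and 39.4 CPM with Fgf1, 54.5 to 92.1 CPM with Fgf10) and Cxcl1 (119.9 and 85.1 CPM against 22.1 to 58.2 CPM) did not overlap. A difference that misses the threshold at this number of libraries does not show that the media act alike. Values that do not overlap at this number do not show that the media act differently.

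**Figure D3:**
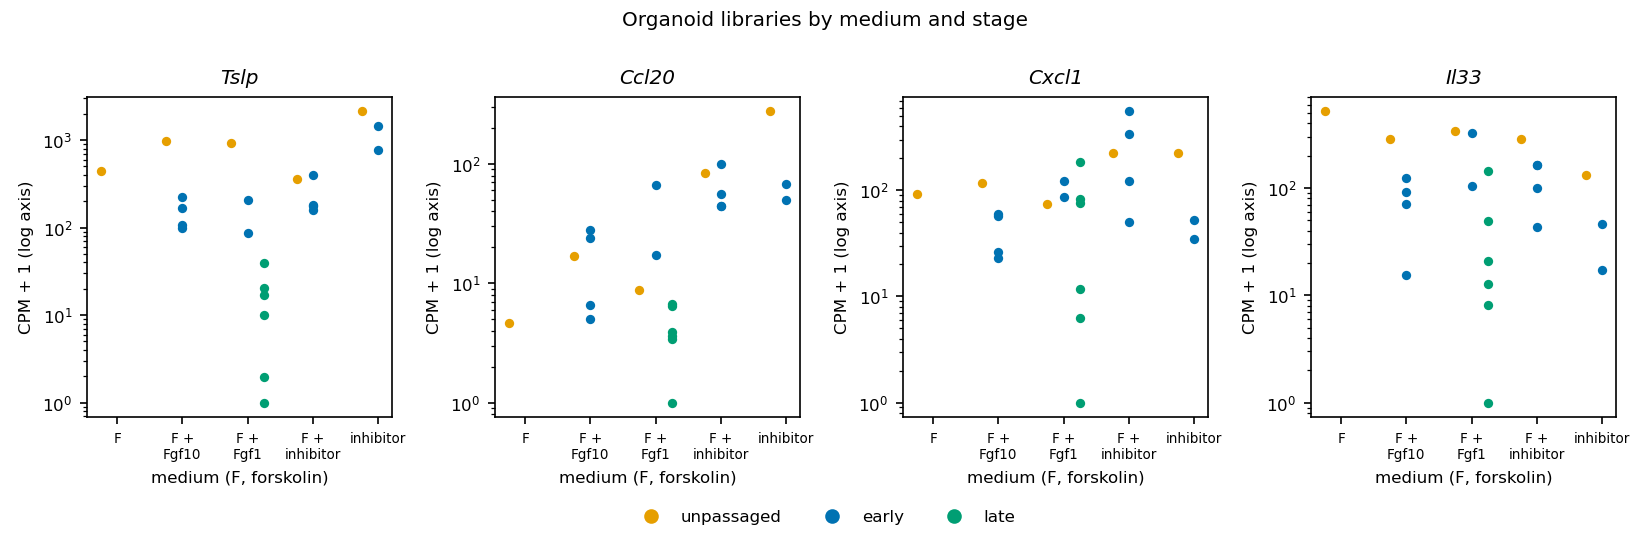
Tslp, Ccl20, Cxcl1 and Il33 in each organoid library, as CPM plus 1 on a log axis, by medium (F, forskolin; inhibitor, TgfB inhibitor) and stage. Tslp is highest with the inhibitor alone in both stages that have that medium (2130.2 CPM unpassaged, 760.0 and 1443 CPM early), and the 6 late libraries lie below the early ones of their medium for Tslp and Ccl20.

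The other genes of these pathways were read from 8 lists by role, and list counts stand beside all genes of each comparison. Against sorted epidermis 18.7% of all genes were higher and 17.7% lower in unpassaged, 20.7% and 20.5% in early and 12.2% and 9.53% in late organoids, with medians of 0.04, 0.05 and 0.04. Nothing here sets a list apart from other genes by a test. Genes with no count in epidermis enter the list medians at their bound against 3 counts over the group. Of the other interleukin-1 family ligands, 4 were tested against sorted epidermis, and 1 rose in unpassaged, 2 in early and 1 in late organoids. Il1f9, the gene of interleukin-36 gamma, was at 25.3 ± 13.4 CPM in unpassaged (SD, n = 5) and 43.1 ± 21.5 CPM in early organoids (n = 12), against 3.20 ± 2.77 CPM in sorted epidermis (n = 3, adjusted p = 0.0125 and 0.000972). Il1f6, interleukin-36 alpha, was at 63.0 ± 54.8 CPM in early and 43.2 ± 68.9 CPM in late organoids and had no count in sorted epidermis. The list's medians were 2.09, 3.37 and 1.99 in unpassaged, early and late organoids.

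Among receptors and binding proteins 6 or 7 of 13 were tested. In unpassaged organoids 2 fell, in early organoids 3 fell, and in late organoids 3 fell and 1 rose (medians of -0.62, -1.01 and -0.55). Il1r1, the signalling receptor for interleukin-1, stood at 12.0 ± 0.847 CPM in sorted epidermis (n = 3) and at 1.84 ± 1.93, 2.07 ± 1.42 and 1.13 ± 1.18 CPM in unpassaged, early and late organoids, and fell in each. Ackr2, a scavenger receptor for inflammatory chemokines, stood at 17.8 ± 12.9 CPM in sorted epidermis and at 0, 0.127 and 0 CPM in the 3 stages, and also fell in each. Il1rap, the shared accessory receptor, fell in early organoids (15.6 ± 7.86 against 51.2 ± 4.30 CPM, adjusted p = 0.00302), and Cxcr2, the receptor for Cxcl1, fell in late ones (2.82 ± 3.46 against 17.0 ± 4.44 CPM, adjusted p = 0.00432). Il18rap, a subunit of the interleukin-18 receptor, rose in late organoids from no count to 4.59 ± 5.70 CPM.

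Genes of processing and release rose in 4 of 9 cases in unpassaged organoids, 5 of 9 in early ones and 4 of 10 in late ones, and 1 fell in early organoids (medians of 2.18, 1.89 and 1.70). Gsdma, a pore-forming gasdermin of skin, stood at 23.9 ± 15.3 CPM in sorted epidermis and at 204 ± 83.97, 427 ± 253 and 427 ± 510 CPM in unpassaged, early and late organoids. Nlrp10 rose in all stages as well, from 23.0 ± 1.25 CPM to 131 ± 51.1, 52.2 ± 23.7 and 123 ± 77.3 CPM. Casp1, the protease that activates interleukin-1 beta and interleukin-18, reached 61.0 ± 20.9 CPM in late organoids from 9.08 ± 0.499 CPM (adjusted p = 0.00017), and it was also higher in early than in unpassaged organoids of the same media (27.4 ± 15.97 against 10.1 ± 7.64 CPM, adjusted p = 0.00832). Pycard, the inflammasome adaptor, was the gene that fell in early organoids (82.1 ± 28.5 against 179 ± 4.32 CPM, adjusted p = 0.0476).

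Of the 12 tested genes that relay the signal from receptor to NF-kB, 2 rose and 1 fell in unpassaged organoids, 1 rose and 1 fell in early ones, and none passed in late ones, and the medians were -0.13, -0.27 and 0.05. Ikbkg, the regulatory subunit of the kinase that frees NF-kB, fell in unpassaged and early organoids (19.7 ± 2.81 and 18.2 ± 4.83 against 51.0 ± 8.78 CPM), and was higher in late than in early organoids with Fgf1 (48.4 ± 16.4 against 16.2 ± 0.866 CPM, adjusted p = 0.0259). Of 13 NF-kB subunits and feedback genes, 1 rose at each stage, Zc3h12a, an RNase that degrades cytokine messages (8.86 ± 5.39 CPM in sorted epidermis, 49.1 ± 23.1, 60.8 ± 17.9 and 67.5 ± 45.9 CPM in organoids). In sorted epidermis against follicles, 8 of these 13 genes were higher against anagen (14.8% of all genes) and 9 against mixed follicles (11.9% of all genes), and none lower. The medians were 2.30 and 2.14, and over all genes -0.15 and -0.08. Nfkbia, the inhibitor of NF-kB, stood at 643 ± 109 CPM in sorted epidermis, 73.8 ± 24.8 CPM in anagen and 101 ± 52.0 CPM in mixed follicles.

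Other chemokines went both ways, with 3 rising and 3 falling of 9 tested in unpassaged organoids, 4 and 3 of 9 in early ones and 4 and 3 of 10 in late ones (medians of 0.49, 2.35 and 1.34). Cxcl3 and Cxcl5, which share the neutrophil receptor with Cxcl1, had no count in sorted epidermis, and Cxcl3 stood at 243 ± 188, 122 ± 139 and 50.5 ± 39.4 CPM in unpassaged, early and late organoids. Cxcl1, Cxcl2 and Cxcl3 are close relatives, and how reads that match several of them were counted is not given in the sources used here. Ccl2, which attracts monocytes, rose in every stage, from 18.9 ± 11.8 CPM to 177 ± 130, 659 ± 432 and 442 ± 554 CPM. Cxcl14, a chemokine of resting skin, fell in every stage, from 720 ± 314 CPM to 110 ± 41.8, 144 ± 52.6 and 101 ± 42.2 CPM. Sorted epidermis was also the group with the Langerhans and T cell markers given above, and their part in its chemokine levels was not tested.

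Of the other keratinocyte cytokines 3 of 6 rose in unpassaged, 4 of 6 in early and 3 of 7 in late organoids, and none fell (medians of 2.91, 2.73 and 2.06). Areg, a ligand of the epidermal growth factor receptor, stood at 1.16 ± 1.08 CPM in sorted epidermis and at 46.8 ± 24.9, 26.3 ± 13.1 and 17.1 ± 12.8 CPM in the 3 stages, and Il24, a cytokine of injured epidermis, went from no count to 58.8 ± 42.9, 11.5 ± 11.7 and 9.66 ± 6.56 CPM. Antimicrobial and alarmin proteins rose in 5 of 10, 7 of 10 and 8 of 10 cases. S100a8 and S100a9, subunits of calprotectin, stood at 1.23 ± 2.14 and 3.18 ± 3.81 CPM in sorted epidermis and at 1913 ± 1062 and 1803 ± 617 CPM in unpassaged organoids. Hmgb1, a nuclear alarmin, fell in unpassaged and early organoids (396 ± 101 and 468 ± 177 against 1268 ± 341 CPM). The list's medians were 3.55, 3.67 and 6.73.

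**Figure D4:**
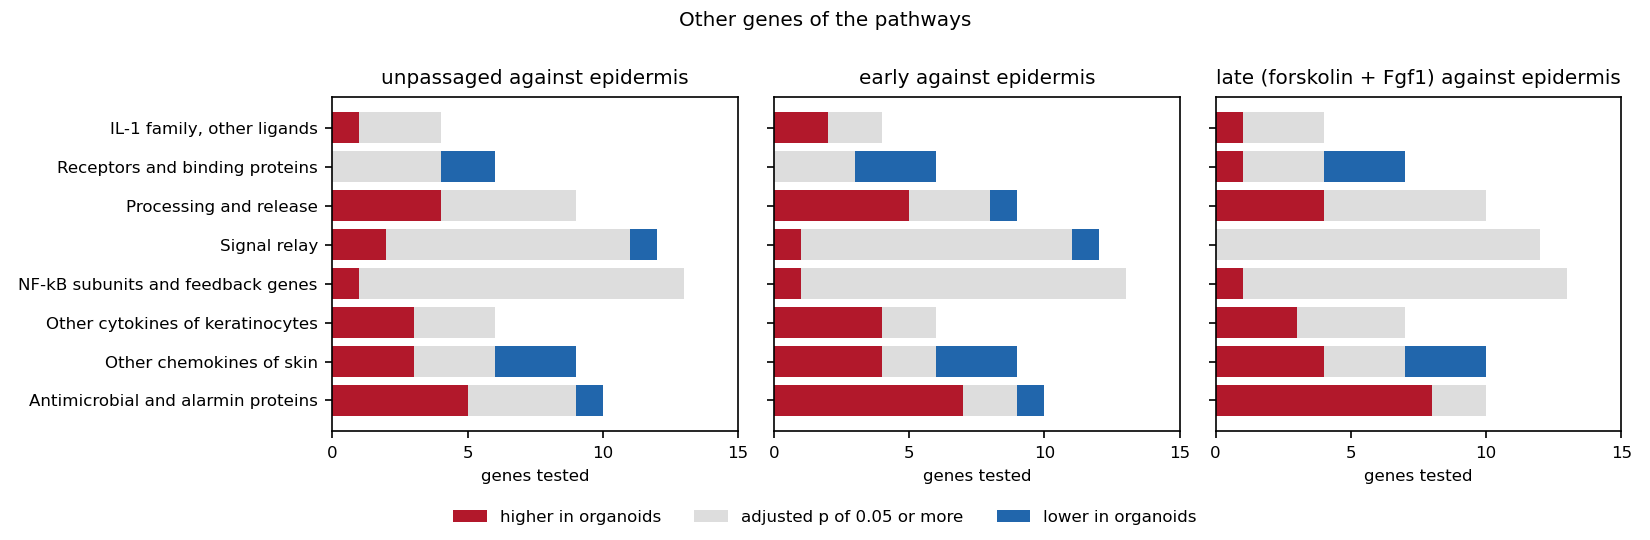
Number of genes tested in each of the 8 lists against sorted epidermis, split into those higher in organoids, those with an adjusted p of 0.05 or more and those lower, in unpassaged, early and late organoids. Antimicrobial and alarmin genes rise in 5, 7 and 8 of 10 cases, while 0 to 3 of 12 relay genes and 1 of 13 NF-kB genes passed at each stage, where 21.8% to 41.1% of all genes passed.

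In early against unpassaged organoids 6 of 61 list genes passed (9.84%, beside 11.8% of all genes), and in late against early ones 5 of 69 (7.25%, beside 6.71% of all genes). In early against unpassaged organoids Il1f6, Casp1 and Defb3 rose and Nlrp10, Nfkb1 and Il24 fell, and no receptor, relay gene or other chemokine passed. Il24 stood at 11.5 ± 11.7 CPM in early and 40.0 ± 9.54 CPM in the 4 unpassaged libraries of the same media (adjusted p = 0.014). In late against early organoids Casp8 fell (6.93 ± 6.05 against 47.5 ± 17.3 CPM, adjusted p = 0.00665), and Ikbkg, Irak4, Tab1 and Pglyrp1 rose. In the 3 comparisons of early media none of the genes tested in the 8 lists passed.

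The genes whose levels ran most like a member's over the 32 libraries were ranked by Spearman's rho of CPM among 7445 genes. These values describe the libraries, which share tissue, stage and depth, and carry no test. For Il18 the nearest were Lce1f (0.95), Lce3e and Lce1g (0.94 each), which encode proteins of the late cornified envelope. For Il33 the nearest was Mmp9 (0.92), and for Il1a they were Sh3kbp1 (0.76), Hk1 (0.73) and Stra6 (0.72). Il1rn and Il1r2, the antagonist and the decoy, were among each other's nearest (0.79), with Oas1f (0.76) and Sema3d (0.75) next for Il1rn and Serpinb7 (0.87) and Hebp2 (0.77) for Il1r2. Cxcl1 was nearest to Cxcl3 (0.89), Hspa4l (0.89) and Hsph1 (0.88), and Ccl20 to Rraga (0.89), Atp5g3 (0.87) and Cacybp (0.85). Tslp was nearest to Wdr36 (0.88), Ybx3 (0.87) and Nadk (0.86), and Wdr36 lies on the same strand with 17427 bases between it and Tslp (18:32815383-32819797, plus strand, GRCm38). Of the 24 neighbours ranked, 5 lie on the chromosome of their member, and the next closest is Cxcl3, with 101640 bases between it and Cxcl1.

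Within the 23 organoid libraries the 5 with the highest sums of differentiated keratinocyte markers were also high in Il18, Il1rn and Il1r2. These sums were 37473 and 22217 CPM in early organoids with the inhibitor alone, 29806 CPM in early replicate 4 with forskolin and the inhibitor, 27763 CPM in early replicate 3 with Fgf10 and 23121 CPM in late replicate 4. In this order Il18 stood at 172, 132, 102, 73.7 and 117 CPM and Il1rn at 143, 85.4, 86.9, 59.7 and 83.3 CPM. Il1r2 stood at 15.4, 23.2, 38.2, 30.1 and 41.6 CPM, which are its 5 highest organoid values. The other early libraries with forskolin and the inhibitor had marker sums of 2926 to 6118 CPM and Il1r2 at 1.07 to 1.36 CPM. Sorted epidermis went another way, with marker sums of 3446 to 3521 CPM and Il1r2 at 259 to 302 CPM. Other libraries with high differentiation markers had low Il1r2. Late replicate 6 had Krt10 at 5285 CPM, with Il1r2 at 1.90 CPM and Il1rn at 28.6 CPM. Early replicate 1 with Fgf10 had Krt10 at 6438 CPM and Il1r2 at 2.93 CPM. High differentiation markers thus went with high values of these members in the 5 libraries above but not in every library. Their part in the differences between groups was not tested.

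**Figure D5:**
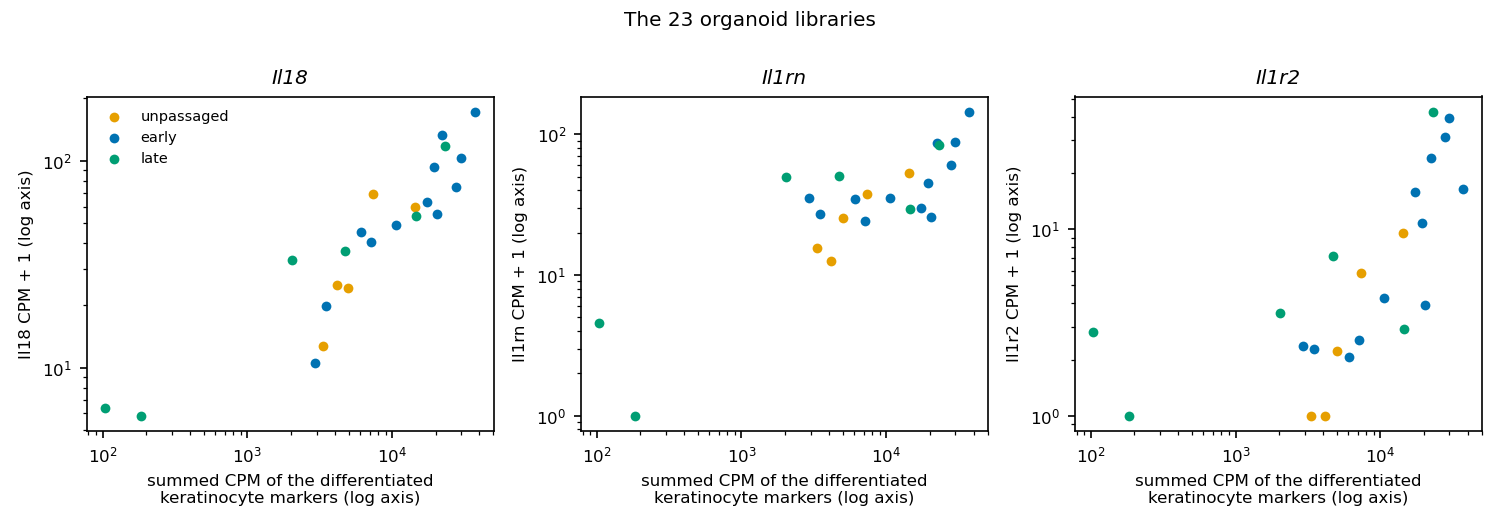
Il18, Il1rn and Il1r2 in the 23 organoid libraries, as CPM plus 1 on a log axis, against the summed CPM of the differentiated keratinocyte markers, also on a log axis; points are libraries coloured by stage. The 2 late libraries with marker sums of 104 and 184 CPM have Il18 at 5.39 and 4.85 CPM, and the library with 37473 CPM has it at 172 CPM.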

How the data were processed

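The deposited files hold raw counts per gene, 1 file per library, and every deposited value was a whole number. The submitters' processing notes name BWA 0.6.2-r126 and mm10. The counter, the annotation and whether molecular identifiers were collapsed: not given in the sources used here. A gene missing from a file was taken as 0, and 14 spike-in names were left out. CPM divides a count by the library's gene total. Counts were tested with edgeR 4.0.16 (R 4.3.3; TMM scaling, filterByExpr with a minimum count of 10 and a minimum total of 15, quasi-likelihood test, adjusted p of 0.05) in 4 fits: tissues with early and late Fgf1 organoids (17 libraries), passaged organoids (18), early and unpassaged organoids with medium as a term (16), and all 32. The fit of all 32 pooled the media within each organoid stage. In the fit of early and unpassaged organoids the filter's groups were set to the stages after a first run. Alternatives were DESeq2 1.42.0, other scalings, no filter, a replicate block, narrower fits and leaving out each library. Scripts were tested on simulated data. No 2 replicates agreed within sampling noise (chi-square over its degrees of freedom, 3.47 to 69.5). All 9 members were named in every comparison, from each list at most 4 called genes of highest mean CPM, and as neighbours the 3 genes of highest rho with a mean of at least 10 CPM, without predicted-gene names; some neighbours are not reported here. The members and lists were chosen with earlier results of these data known.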

Additional observations from a re-analysis of the deposited data

Results flagged for a closer look

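In each group of 4 or more libraries, a member's highest or lowest library was compared with the rest by its gap to the nearest library as a share of the group's range. Of 27 groups 8 were marked. For values with a continuous spread chance marks about 1 in 20 groups, a rate that does not hold for sparse counts. In the 3 marked groups of Il1b, 1 library holds the only counts and the rest are at 0, so the gap equals the range by construction: 1.84 CPM in early replicate 4 with Fgf10, 0.616 CPM in early replicate 4 with forskolin and the inhibitor, and 1.30 CPM in late replicate 4. In early replicate 4 with forskolin and the inhibitor, Il1rn was at 86.9 CPM (next 34.1) and Il1r2 at 38.2 CPM (next 1.36), beside the high differentiation markers of that library. In late replicate 4 Il1r2 was at 41.6 CPM (next 6.19). Il33 was at 142 CPM in late replicate 3 (next 48.0), the deepest late library. Tslp was at 401 CPM in early replicate 1 with forskolin and the inhibitor (next 181).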

How the results depend on the processing

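Of 1389 single-gene values under alternative settings, 1279 kept their side of the threshold, 68 kept the direction and lost the call, and 42 gained a call. Direction was compared only where the gene passed as designed or under the alternative, and there 0 changed direction. Values that passed in neither could change sign, such as Il1a between follicle groups (-1.13 to 0.153 with libraries left out). Counts of members and genes past the test moved as follows, and the cause was not tested. With library totals, 5 members passed (3 as designed) for epidermis against anagen and 5 (3) for late organoids against mixed follicles. This scaling moved the all-gene median from -0.15 to 0.28 in the first of these, 0.09 to 0.64 between follicle groups, 0.04 to -0.12 in late, 0.04 to -0.12 in unpassaged and 0.05 to -0.23 in early organoids against epidermis, 0.01 to -0.13 in early against unpassaged organoids, and -0.01 to 0.11 between the inhibitor and Fgf10 media with forskolin. With no filter on low counts, members passing were 5 for epidermis against anagen, 3 (1) between follicles, 5 for late against mixed, 1 (0) for the inhibitor against Fgf10 (115 genes, 57 as designed) and 6 (3) for early against unpassaged (1663 genes, 1051 as designed). It called 19 genes (0) for forskolin added to the inhibitor and 3 (0) for Fgf1 against Fgf10. DESeq2 called 5 members for epidermis against anagen, 2 between follicles, and 1137 genes (666) for late against early, 138, 24 and 15 genes for the media. Fits of only the groups compared called 4 members (2) for epidermis against mixed, 0 between follicles, 2 (4) and 1377 genes (2360) for late against epidermis, 0 for late against mixed, 0 (2) and 1 gene for late against early, 123, 5 and 43 genes for the media and 539 genes for early against unpassaged (Fgf media only). The single source table with both of those stages, chosen after seeing the data, called 433 genes.

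Same-numbered samples correlated over 0.1 in 9 of 74 pairs (-0.18 to 0.419). This cannot decide whether some of them share an animal or a batch, which no label gives. A replicate block gave 5 members for epidermis against anagen, 3 between follicles, 5 for late against mixed, 1 for the inhibitor against Fgf10, 33 genes for forskolin added to the inhibitor, and 0 members and 87 genes for early against unpassaged (adjusted p of 0.0859 for Tslp, 0.299 for Il33 and 0.238 for Il1rn). With the block Il18 was at 1.94 (adjusted p = 0.13) and Il1rn at -2.36 (adjusted p = 0.0119) in late organoids against epidermis, and Il33 passed in epidermis against mixed follicles (adjusted p = 0.0406). Leaving out 1 library at a time gave 0 to 1 members and 400 to 662 genes (719) between follicles, 0 to 4 members for late against mixed, 2 to 4 members and 1296 to 2547 genes for late against epidermis, 1 to 3 members and 44 to 1097 genes for late against early, and 0 to 3 members and 184 to 1257 genes for early against unpassaged. For the media it gave 17 to 47, 0 to 16 and 0 to 6 genes in the order above. Where it leaves 1 library in a group, that library is assumed to vary like the others. Mean CPM moved by more than 1 SD with TMM scaling in 8 of 54 cases. At 469839 to 739531 counts, a count of 0 in an epidermal library allows a level of up to 3 counts, and values of 1 or 2 counts carry wide counting error.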
